A study of Homo sapiens with 4 samples.

Results

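SEM is 1 of 4 human cell lines of B-cell precursor acute lymphoblastic leukaemia (ALL) whose total RNA was measured on 1 Affymetrix array each. It was set against the other 3 lines, RS4;11, NALM6 and REH, gene by gene over 18377 genes. SEM and RS4;11 carry the translocation t(4;11), in which the MLL gene (KMT2A) is rearranged, and NALM6 and REH lack it. All 4 lines are established precursor B-cell lines grown in RPMI medium with serum, and the labels name no treatment. A gene was called SEM-high where SEM lay at least 4-fold above the highest of the other lines, and SEM-low where it lay at least 4-fold below the lowest of them. The distance to that nearest line is called the gap. Levels are log2 values, and those of the other lines are given throughout in the order RS4;11, NALM6 and REH.

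B-cell precursors pass through a pro-B stage, in which the RAG recombinase joins immunoglobulin heavy chain gene segments, to a pre-B stage, in which a heavy chain pairs with the surrogate light chain encoded by VPREB1 and IGLL1. The CD79A and CD79B proteins carry the signal of this receptor into the cell, and the adaptor BLNK passes it on. Leukaemias with a rearranged KMT2A gene are known for a pro-B surface without CD10, for high FLT3 and HOXA cluster expression, and for the presence of some myeloid antigens.

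The labelled cell type was checked first. Of 9 measured markers of B-cell precursors, 6 lay at or above the median of all gene values (6.75) in SEM, against 9, 9 and 8 in the other lines. The B-lineage regulator PAX5 stood at 11.90 in SEM and 11.73, 11.85 and 11.61 in the other lines. The receptor chain gene CD79A read 11.05 in SEM and 12.10, 11.44 and 12.35, and the inhibitory receptor gene CD22 read 11.10 in SEM and 11.40, 11.54 and 11.65. The 3 markers below the median in SEM were RAG1, RAG2 and DNTT, all genes of V(D)J recombination. The summed linear level of the 9 markers was 9135 in SEM against 18112, 21772 and 32433. Of 7 myeloid markers 2 reached the median in SEM and 1 in each other line, with a summed level of 749 in SEM and 565, 1041 and 483 in the others. Of 6 T-cell markers 1 reached it in every line. None of 4 erythroid and megakaryocyte markers or 5 stromal and epithelial markers reached it in any line.

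The arrays had probe-set medians of 6.40 to 6.46, and the median over genes of SEM minus the median of the other lines was -0.0047. The 25th percentile of all gene values was 4.97, and a fold against a value near it is compressed. With 1 array per line no line has a replicate error. In the limma fit of SEM against the mean of the other 3 lines, the spread came from those lines alone (2 residual degrees of freedom, median SE 0.18), and SEM was assumed to vary as they do. RS4;11, the other translocation line, is among the comparators, so that this contrast sets 1 line apart and does not test the translocation. In RNA from whole cultures, fewer cells of a kind and less RNA per cell cannot be told apart either.

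SEM departed from the other lines mainly by genes that were high in SEM and dim elsewhere. At 4-fold, 127 genes were SEM-high (0.691% of genes) and 38 were SEM-low (0.207%). At 2-fold, 301 genes lay above every other line (1.64%) and 129 below (0.702%). By the same 4-fold rule, 30 genes were highest and 45 lowest in RS4;11, 78 and 84 in NALM6, and 139 and 88 in REH. In limma, 76 genes were higher in SEM (0.414%) and 7 lower (0.0381%) at an adjusted p below 0.05, with 582 and 404 at an unadjusted p below 0.05. Of the 127 SEM-high genes, 73 were among the limma calls, and all 7 genes called lower were among the 38 SEM-low genes. The gap and limma use the same arrays, so this overlap is built in and is no separate check. The smallest limma adjusted p was 0.023, and without any one of RS4;11, NALM6 and REH limma called 0 genes in either direction.

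RS4;11 was the nearest line for 62 of the 127 SEM-high genes and for 24 of the 38 SEM-low genes. NALM6 was nearest for 39 and 8, and REH for 26 and 6. How often each line is nearest over all genes was not computed, so these counts describe the called genes only. Set against single lines, SEM lay at least 4-fold above RS4;11 in 248 genes and below it in 138. These counts were 390 and 266 against NALM6, and 409 and 347 against REH. Without RS4;11 the SEM-high genes numbered 235 and the SEM-low genes 106, and without REH the SEM-low genes numbered 59. In 52 of the 127 SEM-high genes every other line was below the 25th percentile of gene values, and in 107 every other line was below the median. SEM itself fell below the 25th percentile in 3 of the 38 SEM-low genes, and below the median in 24. The shares of all genes at these levels were not computed either. Protein-coding genes made up 126 of the SEM-high and 35 of the SEM-low genes. None of 173 measured miRNA genes stood 2-fold apart in SEM, and 1 of 175 measured snoRNA genes did.

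**Figure D1:**
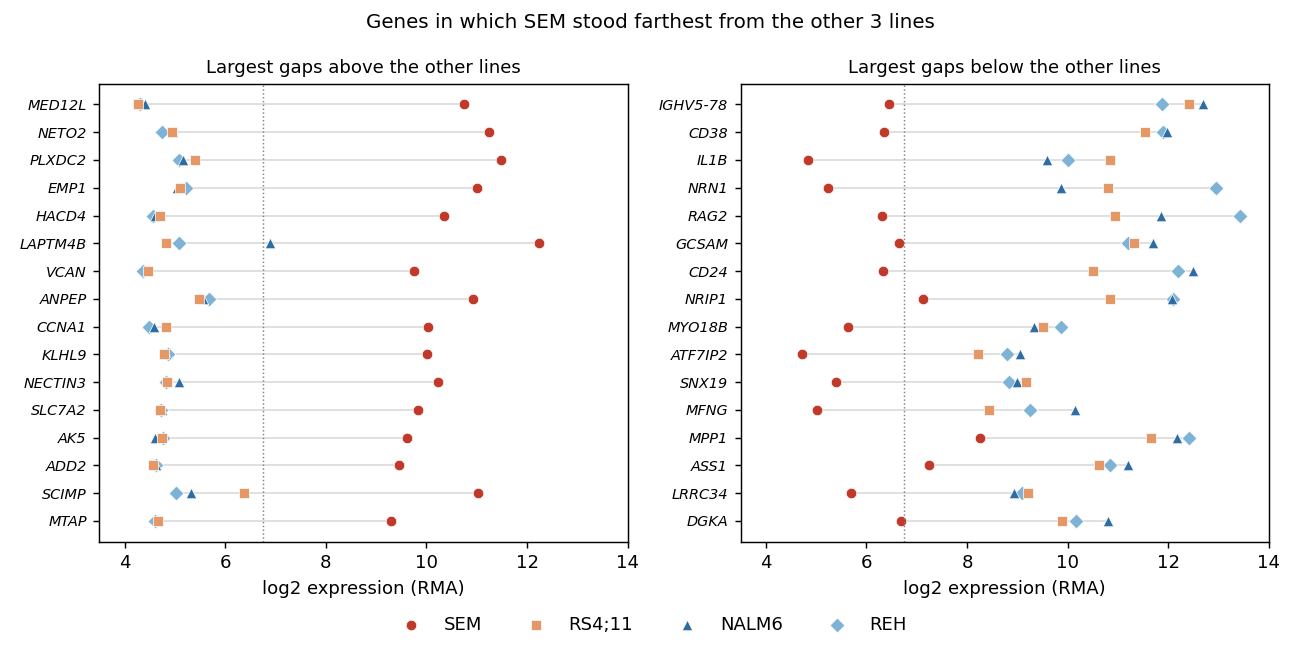
Log2 expression (horizontal axis) of the 16 genes with the largest gap above and the 16 with the largest gap below the other lines, with 1 marker shape per cell line and 1 array each. The dotted line is the median of all gene values (6.75), and on the left the other lines lie between 4.3 and 6.9 and SEM lies above 9. LAPTM4B and SCIMP have 1 other line apart from the rest.

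The plot of the genes farthest from the other lines opens with MED12L, a paralogue of the Mediator kinase-module subunit MED12. It read 10.75 in SEM against 4.26, 4.40 and 4.30, an 81.6-fold gap (limma adjusted p = 0.023). NETO2, an auxiliary subunit of kainate receptors, read 11.25 against 4.93, 4.97 and 4.74, a 77.7-fold gap (limma adjusted p = 0.023). PLXDC2, a transmembrane protein with a plexin domain, read 11.48 against 5.40, 5.17 and 5.08 (limma adjusted p = 0.0247). In each of these genes the other lines lay close together and SEM stood alone. The membrane protein gene EMP1 read 11.01 against 5.10, 5.05 and 5.21. HACD4, a dehydratase of fatty acid elongation, read 10.35 against 4.69, 4.60 and 4.57. NECTIN3, a cell adhesion molecule, read 10.23 against 4.84, 5.08 and 4.82. The cationic amino acid transporter gene SLC7A2 read 9.84 against 4.71, 4.75 and 4.73. For EMP1, HACD4, NECTIN3 and SLC7A2 the limma adjusted p was between 0.023 and 0.0269. The adenylate kinase gene AK5 (9.61 in SEM) and the adducin gene ADD2 (9.45) had other lines between 4.57 and 4.76.

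LAPTM4B and SCIMP differ from these in that another line was partly raised. LAPTM4B, a lysosomal membrane protein, read 12.24 in SEM against 4.82, 6.89 and 5.08. SCIMP, a transmembrane adaptor found in antigen-presenting cells, read 11.01 against 6.37, 5.33 and 5.03. Their gaps were 40.7-fold and 25.1-fold, but the unequal other lines left limma adjusted p values of 0.335 and 0.206. The gap and the test therefore rank these genes differently.

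Among the SEM-low genes were several of the B lineage. CD38, a surface ectoenzyme carried by B-cell precursors, read 6.35 in SEM against 11.54, 11.97 and 11.90, a 36.5-fold gap (limma adjusted p = 0.0345). CD9, a tetraspanin, read 8.53 against 11.56, 11.57 and 11.61 (limma adjusted p = 0.0309). CD24, a glycosylated surface antigen of B-cell precursors, read 6.33 against 10.50, 12.49 and 12.19 (limma adjusted p = 0.431). In CD38 and CD9 the other lines were nearly level, while in CD24 RS4;11 was lower than NALM6 and REH. IGHV5-78, an immunoglobulin heavy variable pseudogene segment, had the largest gap, at 6.46 against 12.42, 12.70 and 11.87 (limma adjusted p = 0.0689). GCSAM, a germinal-centre signalling protein, read 6.65 against 11.31, 11.70 and 11.20 (limma adjusted p = 0.0435). Probes of immunoglobulin segments can be shared between near-identical copies, so the IGHV5-78 level is uncertain.

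Other SEM-low genes have roles outside the B-cell receptor. IL1B, an inflammatory cytokine, read 4.84 in SEM, at the dim end of the array, against 10.84, 9.60 and 10.01. NRN1, the neuritin gene, read 5.23 against 10.80, 9.87 and 12.96. NRIP1, a nuclear receptor corepressor, read 7.12 against 10.83, 12.07 and 12.09. These gaps were 27.1-fold, 24.9-fold and 13.1-fold, and none passed limma (adjusted p = 0.183, 0.631 and 0.307). ASS1, argininosuccinate synthase of arginine synthesis, read 7.24 against 10.63, 11.21 and 10.83 (limma adjusted p = 0.0914). SNX19, a sorting nexin, read 5.39 with the other lines between 8.83 and 9.17, LRRC34 read 5.70 against 9.22, 8.94 and 9.08, and BAHCC1 read 6.52 against 8.98, 8.88 and 8.83. These 3 genes passed limma with adjusted p values of 0.0422 to 0.0435. MPP1, a membrane scaffold protein, and DGKA, a diacylglycerol kinase, had SEM at 8.26 and 6.68 with the lowest other line at 11.65 and 9.89. MYO18B (5.64 in SEM) and ATF7IP2 (4.72) had lowest other levels of 9.34 and 8.21.

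Genes of the pre-B receptor and its signalling sat low in SEM. Of 21 measured members, 13 (61.9%) lay below every other line, against 24.5% of all genes. The median over the list of SEM minus the median of the other lines was -0.81. At 2-fold, 6 members lay below every other line (28.6%, against 0.702% of all genes) and 0 above, and limma called 1 of them, IGLL1. IGLL1, a surrogate light chain component, read 8.66 in SEM against 10.78, 10.70 and 10.73 (limma adjusted p = 0.0435). VPREB3, a protein that associates with the precursor receptor, read 7.03 against 9.71, 10.50 and 11.47. CD79B read 7.63 against 9.99, 10.87 and 11.02. DOK3, an inhibitory adaptor, read 7.84 against 10.65, 10.39 and 10.40 (limma adjusted p = 0.065). BLNK read 5.35 against 7.15, 10.66 and 11.74, and PIK3CD, a catalytic subunit of phosphoinositide 3-kinase, read 7.99 against 9.05, 9.35 and 9.53. Among genes of the same receptor VPREB1 was not lowest in SEM, with 7.57 against 11.35, 10.86 and 5.51. Of the kinases downstream of it, BTK lay close to the other lines at 10.22 against 10.38, 10.81 and 10.27, while SYK was below them at 9.36 against 10.17, 10.43 and 10.09. Without REH the list median was -0.52.

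Promoters of SEM-low B-lineage genes are shown because E-proteins such as TCF3 bind E-box sites and POU2F factors, with their coactivator POU2AF1, bind the octamer. The windows run from 250 bases before to 50 after the start of each gene, from the RefSeq table of build GRCh38.p14, and are written 5′ to 3′ on the gene's strand. Capitals mark the E-box forms CAGCTG and CACCTG and the octamer ATTTGCAT, searched on both strands, so that CAGGTG is CACCTG read on the other strand. None of the marked matches overlap each other. The 3 windows shown were chosen because they hold matches, and those of RAG2, CD24 and BACH2, searched alike, held 0. VPREB3 lies on the minus strand at chr22:23754376-23754675, IGLL1 on the minus strand at chr22:23580241-23580540 and CD38 on the plus strand at chr4:15778078-15778377.
VPREB3: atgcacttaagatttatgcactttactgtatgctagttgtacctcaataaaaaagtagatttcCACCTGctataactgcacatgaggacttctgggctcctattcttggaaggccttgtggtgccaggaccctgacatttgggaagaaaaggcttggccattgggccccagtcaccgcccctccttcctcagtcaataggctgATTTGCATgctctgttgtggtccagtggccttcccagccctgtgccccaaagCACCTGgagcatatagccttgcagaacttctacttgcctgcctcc
IGLL1: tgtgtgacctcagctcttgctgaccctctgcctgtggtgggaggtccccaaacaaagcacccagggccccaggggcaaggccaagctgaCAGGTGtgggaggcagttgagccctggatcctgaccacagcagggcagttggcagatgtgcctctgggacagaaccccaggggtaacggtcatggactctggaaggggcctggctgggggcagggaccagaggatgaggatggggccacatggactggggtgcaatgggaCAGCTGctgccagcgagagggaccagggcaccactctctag
CD38: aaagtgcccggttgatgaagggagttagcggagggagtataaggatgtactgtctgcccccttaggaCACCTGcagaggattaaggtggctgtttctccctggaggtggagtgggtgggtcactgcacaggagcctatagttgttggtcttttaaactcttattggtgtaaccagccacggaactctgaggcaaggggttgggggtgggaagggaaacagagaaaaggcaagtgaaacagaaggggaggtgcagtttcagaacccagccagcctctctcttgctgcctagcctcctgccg
The VPREB3 window held CACCTG at -187 and 5 and the octamer at -47, counted from the start. The IGLL1 window held CAGCTG at 9 and CACCTG at -161, and the CD38 window CACCTG at -183. Of 25 SEM-low genes with a promoter in the table, 9 (36%) held either E-box form, against 33.5% of 14210 promoters of measured genes. Of 102 SEM-high genes 20 (19.6%) did. Taken singly, CAGCTG was in 6 of the 25 and 17.7% of all promoters, and CACCTG in 5 of the 25 and 19.6%. The octamer was in 2 of the 25, those of IL1B and VPREB3, and in 0 of the 102, against 1.61% of all promoters. These matches describe the letters in the window and no binding was measured.

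Among 11 measured recombination and end-joining genes, 5 were lowest in SEM (45.5%, against 24.5% of all genes). They included RAG2, DNTT and RAG1, which are used in lymphoid cells alone. RAG2, a subunit of the RAG recombinase, stood 24.8-fold below the lowest other line (6.31 in SEM against 10.94, 11.86 and 13.43, limma adjusted p = 0.504). DNTT, which adds nucleotides at the joints, read 5.11 against 6.88, 11.54 and 12.43. RAG1, the other recombinase subunit, read 6.33 against 7.24, 7.95 and 8.97, a gap just under 2-fold. In all 3 genes SEM was lowest and RS4;11 next. The DNA end-binding Ku genes were close to level, with XRCC5 at 12.26 against 12.08, 12.08 and 12.09 and XRCC6 at 11.33 against 11.32, 11.39 and 11.18. LIG4, the end-joining ligase, was also lowest in SEM, at 7.20 against 7.40 in RS4;11, 10.86 in NALM6 and 10.17 in REH. Of 11 measured members 2 lay 2-fold below every other line (18.2% against 0.702% of all genes) and 0 above, and limma called 0 in either direction.

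**Figure D2:**
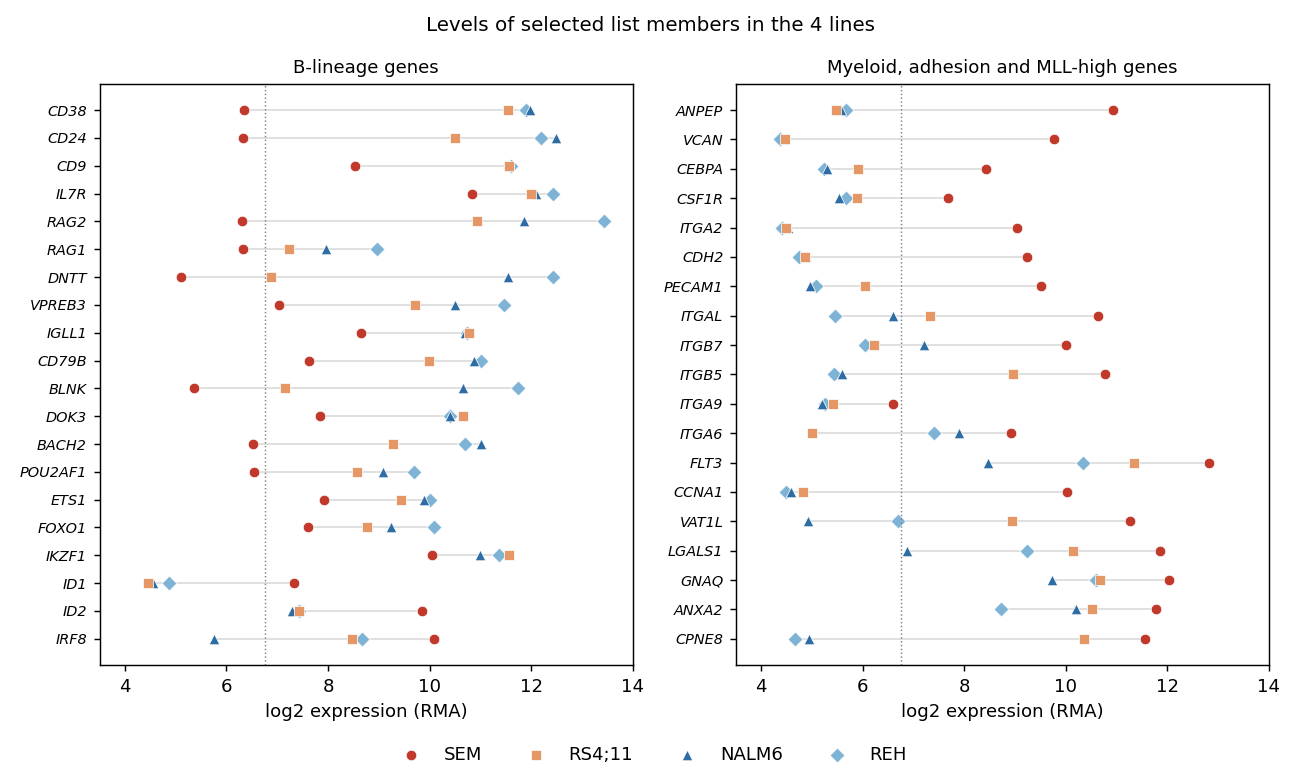
Log2 expression (horizontal axis) of B-lineage genes (left) and of myeloid, adhesion and MLL-linked genes (right), with 1 marker shape per cell line and 1 array each, with the median of all gene values as a dotted line. SEM is the lowest point from CD38 to IKZF1 and the highest for ID1, ID2, IRF8 and every gene on the right. The genes were picked by their gaps or with their values in view, so this pattern follows from the choice. List members without it, such as PAX5, VPREB1, ID3 and MEIS1, are not shown.

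Among 33 measured B-lineage transcription factors, 15 lay below every other line in SEM (45.5%, against 24.5% of all genes). In 5 this was by 2-fold or more (15.2%, against 0.702% of all genes). The list median was -0.40, and it moved to -0.17 without RS4;11. BACH2, a repressor active in precursor and mature B cells, read 6.52 in SEM against 9.27, 11.01 and 10.70. POU2AF1 read 6.54 against 8.56, 9.08 and 9.70. ETS1 read 7.93 against 9.44, 9.88 and 10.00, FOXO1, an activator of the RAG genes, 7.60 against 8.77, 9.24 and 10.09, and SOX4 lay 2.12-fold below the lowest other line (8.58). None of these 5 genes passed limma (adjusted p = 0.345 to 0.963). IKZF1, the Ikaros gene, read 10.05 against 11.57, 10.99 and 11.37, a gap of 0.94 on the log2 scale. The regulators TCF3 (9.92 against 10.56, 9.95 and 10.39) and LEF1 (12.63 against 12.92, 12.64 and 13.08) lay close to the lowest other line.

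The inhibitors of E-proteins stood on the opposite side. ID2 read 9.85 in SEM against 7.42, 7.29 and 7.43, a 5.36-fold gap (limma adjusted p = 0.0435). ID1 read 7.33 against 4.45, 4.55 and 4.87, a 5.48-fold gap (limma adjusted p = 0.105). ID3 did not follow, with 10.69 in SEM and 9.88, 9.04 and 10.71 in the other lines. IRF8, a regulator of both B and myeloid cells, read 10.09 against 8.47, 5.75 and 8.67. Together ID1, ID2 and IRF8 were the 3 members of the list that lay 2-fold above every other line (9.09%, against 1.64% of all genes).

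B-lineage surface antigens were mixed. Of 28 measured members, 4 lay 2-fold below every other line (CD38, CD24, CD9 and IL7R) and 1 above, where 0.702% and 1.64% of all genes did. The list median was -0.15, and -0.09 without RS4;11. IL7R, the interleukin-7 receptor chain, read 10.84 in SEM against 12.01, 12.10 and 12.42. NT5E, the ectonucleotidase CD73, read 7.88 against 5.85, 4.73 and 5.78. Of 22 markers of later B-cell stages 2 lay 2-fold above (9.09% against 1.64% of all genes) and 1 below (4.55% against 0.702%). By the median of the other lines 17 of the 22 lay below it in SEM and 5 above. The median over these markers was -0.15, or -0.53 without those below the median of all gene values in every line. BANK1, a scaffold of B-cell receptor signalling, read 10.51 against 6.75, 5.47 and 5.24. CD86, a costimulatory ligand, read 8.46 against 5.01, 5.05 and 5.01 (limma adjusted p = 0.0269). MZB1, a chaperone for immunoglobulin, read 8.56 against 10.15, 10.74 and 10.76.

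A small number of myeloid genes were high in SEM while most were dim in every line. Of 38 measured myeloid regulators and markers, 4 lay 2-fold above every other line (10.5%, against 1.64% of all genes) and 0 below, 22 were below the median of all gene values in every line, and the list median was 0.01, or -0.07 without REH. ANPEP, the myeloid aminopeptidase CD13, read 10.93 in SEM against 5.48, 5.56 and 5.67, a 38.1-fold gap (limma adjusted p = 0.023). VCAN, the versican proteoglycan made by monocytes and stromal cells, read 9.76 against 4.47, 4.47 and 4.37 (limma adjusted p = 0.023). CEBPA, a myeloid transcription factor, read 8.43 against 5.91, 5.29 and 5.24 (limma adjusted p = 0.212). CSF1R, the receptor for macrophage colony-stimulating factor, read 7.69 against 5.88, 5.53 and 5.66 (limma adjusted p = 0.141). Of the 24 T and NK cell markers, the 17 erythroid and megakaryocyte markers and the 19 stromal and epithelial markers, only PECAM1, an adhesion molecule of endothelium and leukocytes, stood 2-fold apart in SEM.

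Adhesion and migration genes held the largest share of SEM-high members among the 39 lists with at least 3 measured members. Of 30 measured members, 8 lay 2-fold above every other line (26.7%, against 1.64% of all genes) and 0 below. At any size 17 lay above every other line (56.7%, against 22.9% of all genes). The list median was 0.59. ITGA2, the collagen-binding integrin alpha2 chain, read 9.03 in SEM against 4.49, 4.53 and 4.42, a 22.7-fold gap (limma adjusted p = 0.023). CDH2, the N-cadherin gene, read 9.23 against 4.86, 4.88 and 4.74, a 20.4-fold gap (limma adjusted p = 0.024). Both were dim in each other line. PECAM1 read 9.51 against 6.04, 4.96 and 5.08, and its gap of 3.47 became 2.74 with the mean of its probe sets. ITGAL, the alpha chain of the leukocyte integrin LFA-1, read 10.64 against 7.33, 6.60 and 5.45. ITGB7, a chain of gut-homing integrins, read 10.01 against 6.22, 7.21 and 6.04, and ITGB5 read 10.76 against 8.95, 5.59 and 5.43. ITGA9 (6.60 in SEM) and ITGA6 (8.93) had gaps just over 2-fold. ITGB8, outside the list and chosen after its values were seen, read 9.13 against 4.57, 4.44 and 4.59 (limma adjusted p = 0.024). The chemokine receptor gene CXCR4, which retains precursors in the marrow, was lower in SEM, at 9.54 against 10.71, 11.82 and 11.39. It was the 1 member of 24 chemokine genes that lay 2-fold below (4.17%, against 0.702% of all genes), with 0 above.

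**Figure D3:**
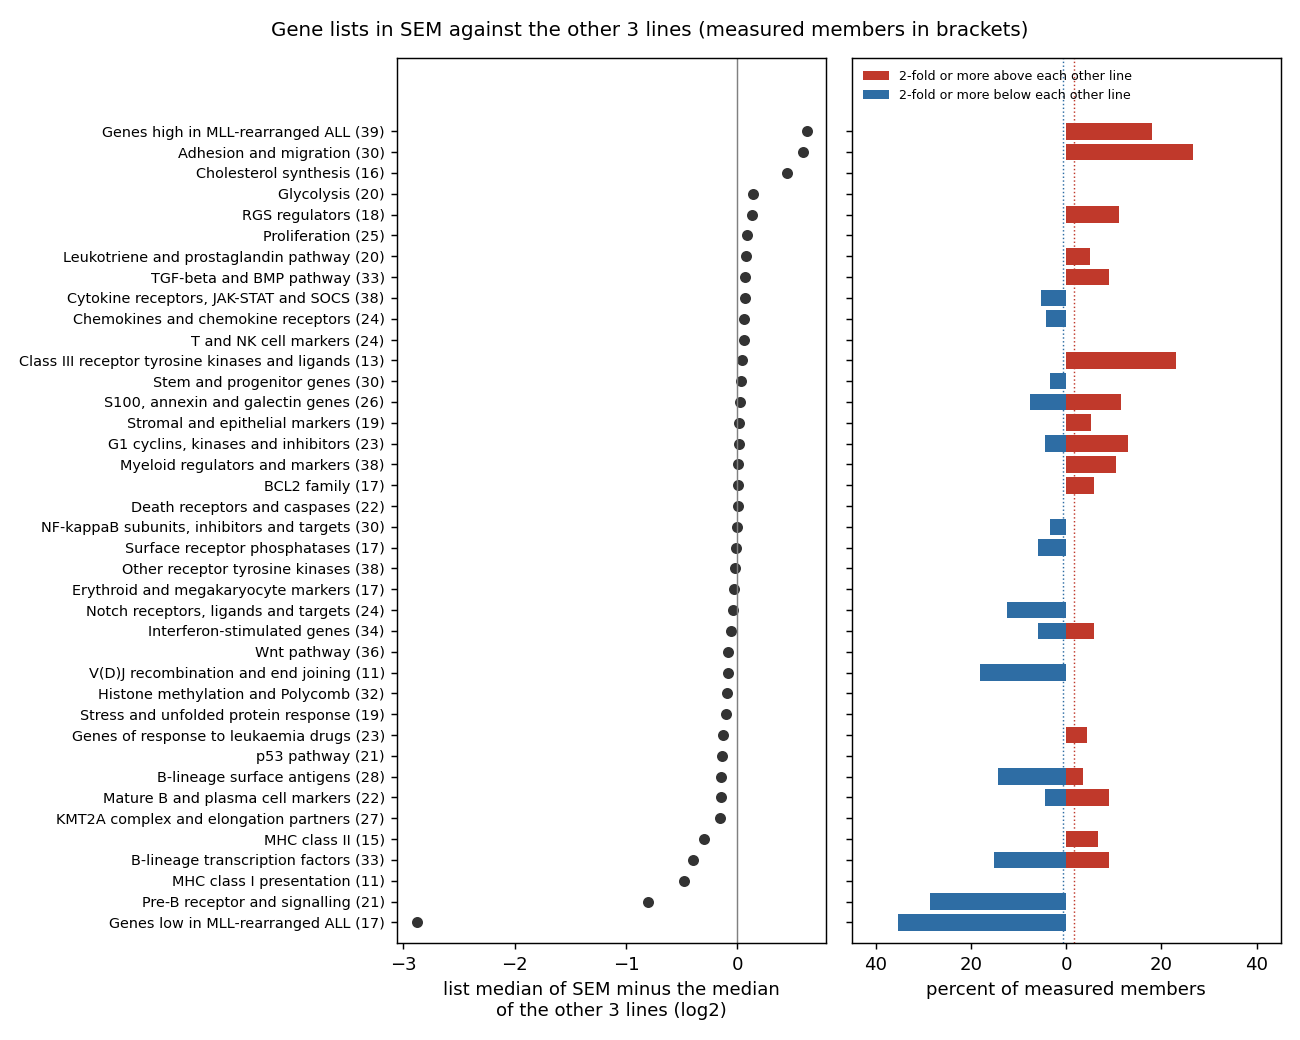
Each of the 39 gene lists with at least 3 measured members, as the median over members of SEM minus the median of the other lines (left, log2) and as the percent of members at least 2-fold above (red, to the right) or below (blue, to the left) every other line (right). Dotted lines give the same percent over all genes (1.64 above and 0.702 below), and the bottom list has the lowest median (-2.88).

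Genes known from MLL-rearranged leukaemia placed SEM at the outer end of the range. Of 39 measured genes known to be high in such leukaemias, 23 were highest in SEM (59.0%, against 22.9% of all genes). In 7 this was by 2-fold or more (17.9%, against 1.64% of all genes), and the list median was 0.62. FLT3, a receptor tyrosine kinase of progenitors, read 12.82 in SEM against 11.34, 8.46 and 10.35, a 2.80-fold gap (limma adjusted p = 1). LGALS1, the galectin-1 gene, read 11.85 against 10.14, 6.87 and 9.23, and VAT1L read 11.27 against 8.93, 4.92 and 6.69. In FLT3, LGALS1 and VAT1L alike RS4;11 was the line next to SEM, and the limma contrast counts it with the other lines. CCNA1, a cyclin of the germ line and of leukaemic cells, read 10.03 in SEM and 4.82, 4.59 and 4.49 elsewhere, so that RS4;11 did not share its level (36.8-fold gap, limma adjusted p = 0.0295). GNAQ (12.03 in SEM), ANXA2 (11.77) and CPNE8 (11.55) had gaps of 2.58-fold, 2.39-fold and 2.29-fold. SEM lay above RS4;11 in 25 of the 39 genes, by 2-fold or more in 7, and RS4;11 lay 2-fold above SEM in 4. The share of all genes was not computed for this pair of lines, so these counts describe the listed genes only. MEIS1, a cofactor of HOX proteins, was level in both translocation lines (11.20 in SEM, against 11.30, 4.92 and 4.82).

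Another list held genes known for low levels in leukaemia with rearranged MLL. Of its 17 measured members 11 were lowest in SEM (64.7%, against 24.5% of all genes) and 0 were highest. In 6 genes SEM was lowest by 2-fold or more (35.3%, against 0.702% of all genes). The list median was -2.88, and it was -1.64 without NALM6 and -1.81 without REH. The 6 genes were CD24, RAG2, DNTT, BLNK, CD79B and IGLL1. All of them were already counted above among pre-B receptor, recombination or surface antigen genes, so this list is not separate from those. SEM was 2-fold below both NALM6 and REH in 10 of the 17 genes, and RS4;11 in 6. The shares of all genes were not computed for these comparisons either. MME, which encodes CD10, was low in both translocation lines, at 5.34 in SEM against 5.54, 12.48 and 12.56. RS4;11 was nearer to NALM6 and REH than SEM was in CD24, RAG2, CD79B and IGLL1, each of which had RS4;11 at 9.99 or above. TCL1A, a coactivator of AKT, went another way, at 11.48 in SEM against 10.59, 13.42 and 5.98. The rearranged genes themselves were slightly lower in SEM, with KMT2A at 10.61 against 11.12, 10.72 and 11.01 and AFF1 at 10.89 against 11.69, 11.22 and 11.30. The arrays do not separate normal from fusion transcripts of KMT2A and AFF1. Of the HOXA cluster 2 genes were measured, neither of which was highest or lowest in SEM, and the others were not analysed here.

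In the signalling lists single genes stood apart. BMP4, a secreted ligand, read 7.58 in SEM against 4.69, 4.61 and 4.62, a 7.44-fold gap (limma adjusted p = 0.0314). ACVR2A, an activin receptor, read 6.88 against 4.60, 5.43 and 4.48, and SKI, a repressor of SMAD signalling, read 9.53 with the highest other line at 8.15. These were the 3 of 33 TGF-beta and BMP genes that lay 2-fold above every other line (9.09% against 1.64% of all genes), with 0 below. Among 24 Notch genes 3 lay 2-fold below (12.5% against 0.702% of all genes) and 0 above. MFNG, a glycosyltransferase that modifies Notch receptors, read 5.02 in SEM against 8.43, 10.15 and 9.24. NOTCH2 read 8.31 against 9.56, 9.35 and 9.81, and the ligand DLL3 read 5.04 against 6.72, 7.37 and 6.10. TNFAIP3, an inhibitor of NF-kappaB, read 6.41 against 7.86, 10.31 and 12.02. It was the 1 of 30 genes of that pathway that lay 2-fold below (3.33%, against 0.702% of all genes), with 0 above. SOCS2, an inhibitor of cytokine signalling, read 5.85 against 7.07, 10.23 and 10.12. RGS2, a brake on G protein signalling, read 10.68 with the highest other line at 7.95, and RGS1 read 6.66 with the highest at 5.39.

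Other lists had members at 2-fold in 1 or both directions. TBXAS1, thromboxane synthase, read 9.41 in SEM against 6.97, 5.27 and 5.42. SAMHD1, a dNTP hydrolase that also degrades the active form of cytarabine, read 10.86 against 9.37, 9.45 and 7.71. BMF, a proapoptotic member of the BCL2 family, read 8.89 against 6.87, 7.29 and 6.17. These were the single members at 2-fold of lists with 20, 23 and 17 measured genes (5.0%, 4.35% and 5.88%, against 1.64% of all genes). Of 26 S100, annexin and galectin genes 3 lay 2-fold above (ANXA1, ANXA2 and LGALS1, 11.5% against 1.64% of all genes) and 2 below (7.69% against 0.702%). LGALS8 read 6.82 against 9.81, 9.90 and 9.28 and ANXA6 read 9.69 against 11.50, 10.90 and 11.11. The class III receptor kinase list held the ligand PDGFD, at 5.81 against 4.47, 4.43 and 4.31, beside FLT3 and CSF1R. Interferon-stimulated genes went both ways, with OAS2 (8.03 against 9.89, 10.18 and 9.70) and MX2 (7.45 against 8.53, 8.91 and 9.40) lower and GBP2 (6.33 against 4.74, 4.94 and 4.63) and IFITM3 (6.43 against 5.25, 4.79 and 4.56) higher. IFI30, a lysosomal reductase, read 11.03 against 9.85, 9.97 and 9.70, with a gap that was just under 2-fold (0.99 on the log2 scale) on centred arrays. Of 15 MHC class II genes 8 were lowest in SEM (53.3% against 24.5% of all genes), and the list median was -0.30, or -0.18 without NALM6. MSI2, an RNA-binding protein of stem cells, read 10.08 against 11.16, 11.33 and 11.66, and the phosphatase gene PTPRE read 7.67 against 9.04, 9.33 and 10.01.

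Lists of common cell functions showed no member at 2-fold. Of all genes 1.64% lay 2-fold above and 0.702% below every other line, so in lists of this size that is near the share of all genes. The median was 0.09 over 25 proliferation genes, 0.14 over 20 glycolysis genes, -0.09 over 32 genes of histone methylation and Polycomb, and -0.10 over 19 stress response genes. These medians are small and moved when a line was left out, glycolysis to 0.03 without NALM6 and 0.24 without REH, proliferation to 0.03 without RS4;11 and stress response to 0.05 without NALM6 and -0.03 without REH. The 11 measured MHC class I presentation genes had a median of -0.48, or -0.18 without NALM6 and -0.06 without REH. Of these genes 5 were lowest in SEM (45.5%, against 24.5% of all genes) and none was at 2-fold. The 16 cholesterol synthesis genes had a median of 0.44, or 0.21 without NALM6. Of these 6 were highest in SEM (37.5%, against 22.9% of all genes) and 0 lowest. The lists of Wnt genes (36 measured), other receptor tyrosine kinases (38), death receptors and caspases (22), p53 pathway genes (21) and KMT2A complex and elongation partners (27) had no member at 2-fold either. For these list sizes, too, that is near the share of all genes. In the last of these 13 genes were lowest in SEM (48.1%, against 24.5% of all genes). Limma called 0 genes in either direction in the MHC class I presentation and cholesterol lists.

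Genes next to the tumour suppressor locus on chromosome 9 stood high in SEM together. CDKN2A, which encodes the p16 and p14ARF inhibitors, read 9.35 in SEM against 4.90, 4.69 and 4.66, a 21.9-fold gap (limma adjusted p = 0.0295). MTAP, an enzyme of methionine salvage, read 9.29 against 4.67, 4.65 and 4.60 (limma adjusted p = 0.023). KLHL9, a ubiquitin ligase adaptor, read 10.01 against 4.78, 4.82 and 4.86 (limma adjusted p = 0.023). HACD4 and FOCAD lie in the same stretch, FOCAD at 7.72 against 4.86, 4.60 and 4.78 (limma adjusted p = 0.0435). In all 5 genes every other line was at or below 4.90, near the 25th percentile. The stretch from FOCAD to CDKN2B, chosen after its values were seen, held 20 measured genes. The other 15, most of them interferon genes, were below the median of all gene values in every line, the highest SEM level being 5.66. CDKN2B, a neighbouring inhibitor gene, read 4.93 against 4.84, 4.73 and 4.70, so that it was dim in SEM as well. Whether these genes are present in the DNA of each line was not tested. In the list of G1 control, with 23 measured genes, CCNA1, CDKN2A and MTAP were 2-fold above every other line, where 1.64% of all genes were. CDKN2A and MTAP belong to the stretch just described, so they are not separate from it. MTAP was counted in the list although it is an enzyme of methionine salvage. E2F2 (9.05 against 10.05, 10.07 and 10.17) was 2-fold below, where 0.702% of all genes were. The gap of E2F2 was 0.99 on the log2 scale after repeated quantile normalization.

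Along chromosomes, genes low in SEM lay side by side on chromosome 13. For runs of 20 neighbouring genes, the median of SEM minus the median of the other lines lay between -0.24 and 0.18 for the 5th and 95th percentile of 9801 runs. The lowest run in the genome, from SUPT20H to DNAJC15 on chromosome 13, had a median of -0.94. On chromosome 13, 122 of 184 genes (66.3%) were lowest in SEM, against 24.3% of the 10238 genes used. From SUPT20H to CHAMP1, the last gene, 126 genes had a median of -0.71, 96 were lowest and 6 highest in SEM. In the same genes the median of each other line against its own 3 comparators was 0.08, 0.14 and 0.17. Single genes in the stretch ranged from -4.88 (DNAJC15) to 3.28 (FARP1) for SEM minus the median of the other lines. By the gap to the nearest line, 7 of the 126 genes lay 2-fold below every other line and 1 above. Over all genes 0.702% lay 2-fold below and 1.64% above. Those below include FOXO1 and CDADC1 (6.54 in SEM against 7.64, 7.92 and 7.82), and the one above is SPRY2, an inhibitor of growth factor signalling (10.52 against 9.25, 8.95 and 8.94). RB1, the retinoblastoma gene within this stretch, read 11.93 against 12.06, 12.23 and 12.01.

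FLT3 lies outside the low stretch of chromosome 13. The first 24 genes of the chromosome had a median of -0.63, with 19 lowest and 0 highest in SEM. The next 11 genes, from WASF3 to PAN3 and including FLT3, had a median of 0.56, with 10 highest and 0 lowest in SEM. Of the 10238 genes used 24.2% were highest and 24.3% lowest. The stretch was bounded by its high values, and WASF3 reached the level needed for the runs in SEM alone, so these counts are no test. WASF3, a regulator of actin, read 7.78 in SEM against 5.27, 5.29 and 5.19 (limma adjusted p = 0.0394). PAN3, a subunit of a poly(A) nuclease, read 13.62 against 13.18, 11.86 and 12.17. Over FLT3 and the 15 measured genes on each side of it, dim ones included, 14 of 31 were highest in SEM and 5 lowest. Over all genes 22.9% were highest and 24.5% lowest. Of the 31 genes 2 were 2-fold above every other line (WASF3 and FLT3). All boundaries along chromosomes were chosen after the values were seen, and DNA copy number was not tested.

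**Figure D4:**
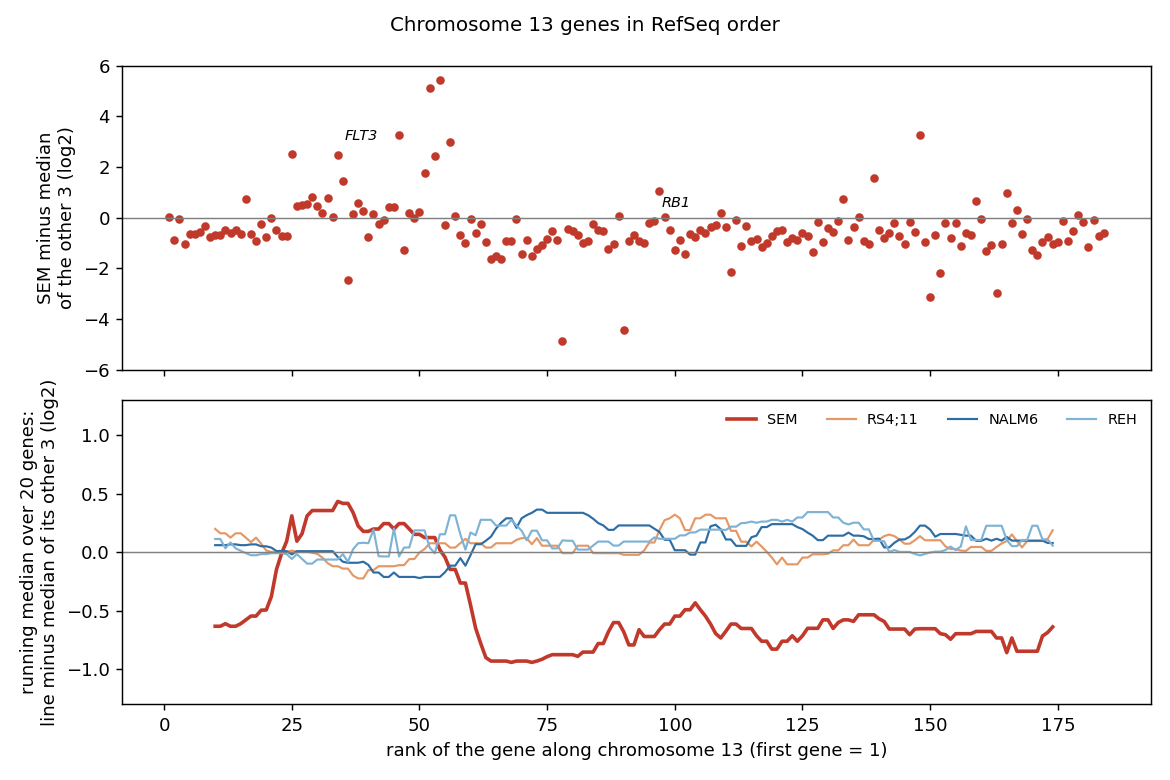
Genes of chromosome 13 in RefSeq order (horizontal axis, rank), as SEM minus the median of the other lines in log2 for single genes (top) and as the running median over 20 genes of each line against its own other 3 lines (bottom). The SEM line falls to about -0.6 at the start, rises above 0 around FLT3 and lies below -0.4 from rank 62 on, while the other lines stay within 0.4 of 0.

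On the first part of chromosome 7 RS4;11 lay on the same side as SEM. Over its first 75 genes, from PDGFA to MALSU1, the median of each line against its own other 3 lines was -0.57 in SEM and -0.46 in RS4;11, and 0.51 in NALM6 and 0.65 in REH. Without RS4;11 the SEM median there was -0.82. The remaining 400 genes of the chromosome had a median of -0.19 in SEM and 0.11 in RS4;11. Over the whole chromosome 37.3% of genes were lowest in SEM, against 24.3% of the 10238 genes used. The highest run, 20 genes from GNPDA1 to PDGFRB on chromosome 5, had a median of 0.54. In it 11 genes were highest in SEM, where 24.2% of the 10238 genes used were. The median of this run moved to 0.29 without NALM6, whose own median in that run was -0.88. Another run was then highest, at 0.89, and without REH the highest was 1.11 against 0.73 for this one.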

How the data were processed

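Total RNA of 4 cell lines, extracted with TRI Reagent, was labelled for Affymetrix arrays, per the labels' protocols. The deposited values are taken as log2 values, from their range of 3.44 to 14.27, and the submitters' processing notes name RMA and Partek. Their versions and roles, and the annotation build, are not stated in these sources. RMA has no detection call, and its quantile step equalises total signal between arrays. The number of arrays limits the precision. RNA sequencing of these lines was not analysed here.

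Of 32968 probe sets, 19310 carried 1 symbol in the platform annotation, 1752 several and 11906 none listed. Of the named ones 19279 matched RefSeq (GRCh38.p14) by Entrez ID, which supplied gene order and promoters, and 0 symbols changed. Where probe sets shared a symbol (685 genes), that with the highest mean over the arrays was used. EBF1, HOXA9 and other genes without such a probe set were not analysed here. Chromosomal runs used genes at or above the median of all gene values in at least 1 line.

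Groups follow the sample titles. SEM was compared with the mean of the other lines in limma 3.58.1 (lmFit, eBayes, R 4.3.3), two-sided, and p-values were adjusted by Benjamini-Hochberg over 18377 genes and called below 0.05. P-values measure the spread between single cultures of different lines. On simulated data, with all lines of a gene drawn at the same spread, the recovery of shifts planted in SEM was checked. False calls, and a spread of SEM unlike that of the others, were not tested. Python 3.11.15 ran the rest, with pandas 2.3.3, matplotlib 3.10.9 and numpy 2.4.6.

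The named genes are the 16 largest gaps in each direction, up to 4 members per list with the largest gap of at least 2-fold, the 5 smallest p-values per direction, and FLT3, KMT2A and AFF1. Any other gene named was picked with its values in view. The comparison, the 40 lists (967 symbols, 93 of them not measured) and the tests were chosen with earlier results of these data known. Alternatives were repeated quantile normalization, centred arrays, averaged probe sets, no dim genes (below the median of all gene values in every line), trend or robust eBayes, other thresholds, runs of 40 genes, leaving out each other line and, added after seeing the data, all probe sets.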

Additional observations from a re-analysis of the deposited data

How the results depend on the processing

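The 127 SEM-high and 38 SEM-low genes became 59 and 19 at 8-fold and 301 and 129 at 2-fold. Leaving out 1 other line, which can only add genes, gave 150 to 235 and 55 to 106. Repeated quantile normalization shared 127 of 127 and 38 of 38 genes, centred arrays 124 and 38, and averaging each gene's probe sets 125 and 38. Limma's 76 higher and 7 lower genes became 28 and 1 without dim genes (10259 tested), and 60 and 3 over all probe sets. At an adjusted p below 0.1 they were 108 and 12. Without RS4;11, NALM6 or REH limma called 0 genes in each direction, with 1 residual degree of freedom and 834, 479 and 578 genes higher at an unadjusted p below 0.05 (725, 314 and 399 lower). Of the gaps of named genes under the alternatives, 460 moved by less than the spread between the other lines and 50 by more, and 0 changed direction. Leaving out a line can only keep or widen a gap, so those alternatives could not change its direction. Most of these genes were also named for a large gap. For list medians these counts were 250 and 22. From SUPT20H to the end of chromosome 13 the median stayed between -0.76 and -0.71. No paired analysis was possible because each line has 1 array and replicate numbers link no lines. Dim levels limit folds, since values near 5 lie at the low end of the array.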

Other observations

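Further SEM-high genes lay outside the gene lists and were chosen after their values were seen, with the other lines again given in the order RS4;11, NALM6 and REH. PAX6, a transcription factor known from eye and brain, read 8.21 in SEM against 4.74, 4.93 and 4.61 (limma adjusted p = 0.0435). The aryl hydrocarbon receptor gene AHR read 8.15 against 4.71, 4.84 and 4.71, and TOX, a regulator of T-cell development, read 8.23 against 4.81, 4.74 and 4.45. FOSL2, an AP-1 subunit, started from a higher level, at 10.30 against 6.91, 6.94 and 6.65. The guidance receptor gene ROBO1 read 10.96 against 5.31, 5.17 and 6.98, and the semaphorin gene SEMA3A read 11.15 against 8.26, 4.37 and 8.27. SEMA3A was thus dim in NALM6 alone.

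On chromosome 12, CLEC9A, a lectin receptor of dendritic cells, read 8.97 in SEM against 4.80, 4.57 and 4.54 (limma adjusted p = 0.0314). The NK receptor gene KLRC3 read 8.18 against 4.83, 5.25 and 4.76, and the readthrough entry KLRC4-KLRK1 read 9.24 against 4.34, 4.62 and 4.12 (limma adjusted p = 0.0953 and 0.0435). KLRC genes are near-identical copies, so probes may not tell them apart. Among further SEM-low genes, the activation antigen gene CD69 read 5.75 against 7.96, 9.30 and 8.23. PAG1, an adaptor of lipid rafts, read 7.60 against 10.80, 11.23 and 11.60, and the phospholipase gene PLCB1 read 6.12 against 11.47, 9.90 and 8.88. None of CD69, PAG1 and PLCB1 passed limma (adjusted p = 0.625, 0.164 and 0.821).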
